A study of Mus musculus with 24 samples.

Results

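Sciatic nerve of S63del/Chop null mice was compared with sciatic nerve of Chop null mice at postnatal day 28 (P28), on 2 arrays of each. These are 4 of the 24 arrays of the study, chosen by the genotype and age in their titles and not by any measured value. Both groups lack Chop, the stress transcription factor also called Ddit3, so the comparison asks what the S63del mutation does to the nerve when Chop is missing. The study crossed 4 genotypes (S63del/Chop null, Chop null, S63del and wild type, WT) with 3 ages (P5, P28 and 4 months), with 2 replicates labelled as biological in each of 12 groups. The labels give neither the number of animals behind an array, nor their sex, nor any further allele. Nerves were stripped of their sheath of perineurium before RNA was made, and whole nerve was measured, so fewer cells of a type and less RNA per cell cannot be told apart.

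S63del is a mutation that models an inherited demyelinating neuropathy. Its mutant protein is held back in the endoplasmic reticulum (ER) of myelinating Schwann cells, where it sets off the unfolded protein response. That response raises ER chaperones through ATF6 and XBP1, and through PERK it slows translation, favours ATF4 and turns on Chop, which in turn helps translation to restart.

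Levels below are log2 expression as deposited, 1 value per array, and a difference is a log2 difference of group means with the standard error (SE) of a limma fit to all 24 arrays. In that fit 2209 of 12393 genes passed an adjusted p of 0.05 (17.8%), 1211 of them higher in S63del/Chop null nerves (9.77%) and 998 lower (8.05%). The 2 Chop null arrays differed widely, so for many genes the 4 array values or the difference against each Chop null array are also given. Other changes are given as the full-fit difference alone. With Chop null replicate 2 left out, 553 genes passed (4.46%), and with Chop null replicate 1 left out 5988 did (48.3%). Both with and without replicate 2, 428 genes passed (3.45%), 258 higher (2.08%) and 170 lower (1.37%). In what follows "rose" and "fell" are used only of these 428 genes, and 137 of them differed by more than 2-fold. A gene described as called with both arrays only passed in the full fit and not without replicate 2. A count of genes called with both arrays is that of the full fit and includes those that rose or fell. List counts below are to be read beside the shares of all genes given here. The count of calls depended on how the spread was estimated: with the 8 P28 arrays alone in the fit 84 genes passed, and with array weights 14. Hspa5, Hsp90b1, Dnajc3 and Asns, described below, were called in neither of these fits, while Cxcl14, Sox2, Csrp2, Hspa1a and Sdf2l1 were called in both. A comparison of 2 arrays with 2 cannot go below p = 0.333 in an exact permutation test, and p-values measure only the spread between these arrays.

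Chop null replicate 2 stood apart in several array measures, of which only the added bacterial control RNAs do not come from nerve transcripts. The spread of its gene levels was narrower, with an interquartile range of 2.90 against 3.18 to 3.52 on the 7 other P28 arrays. The bacterial control RNA bioB read 7.15 and 7.03 on the S63del/Chop null arrays, against 7.50 on Chop null replicate 1 and 8.95 on replicate 2, and bioC, bioD and cre were likewise highest on replicate 2. Control RNAs also split the P28 arrays by S63del: bioB lay at 7.03 to 7.18 on the 4 arrays with S63del, against 7.29 to 8.95 on the 4 without it, and bioC, bioD and cre did not overlap either. The 3′ to 5′ difference of actin, a measure of RNA integrity, was 0.70 and 0.86 on the S63del/Chop null arrays, against 0.59 and 1.12 on Chop null replicates 1 and 2, while that of Gapdh did not set replicate 2 apart (0.34, against 0.39 on S63del replicate 2). With the genes split by level into 5 equal sets, the mean difference of replicate 2 from replicate 1 was 0.43 in the dimmest set and -0.27 in the brightest, while the S63del/Chop null arrays differed by at most 0.05 in any set. The typical replicate SD of a gene was 0.394 in Chop null and between 0.192 and 0.213 in the other P28 groups. A difference seen against both Chop null arrays is therefore described first, and the part of this array in the counts that include it was not tested beyond leaving it out.

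**Figure D1:**
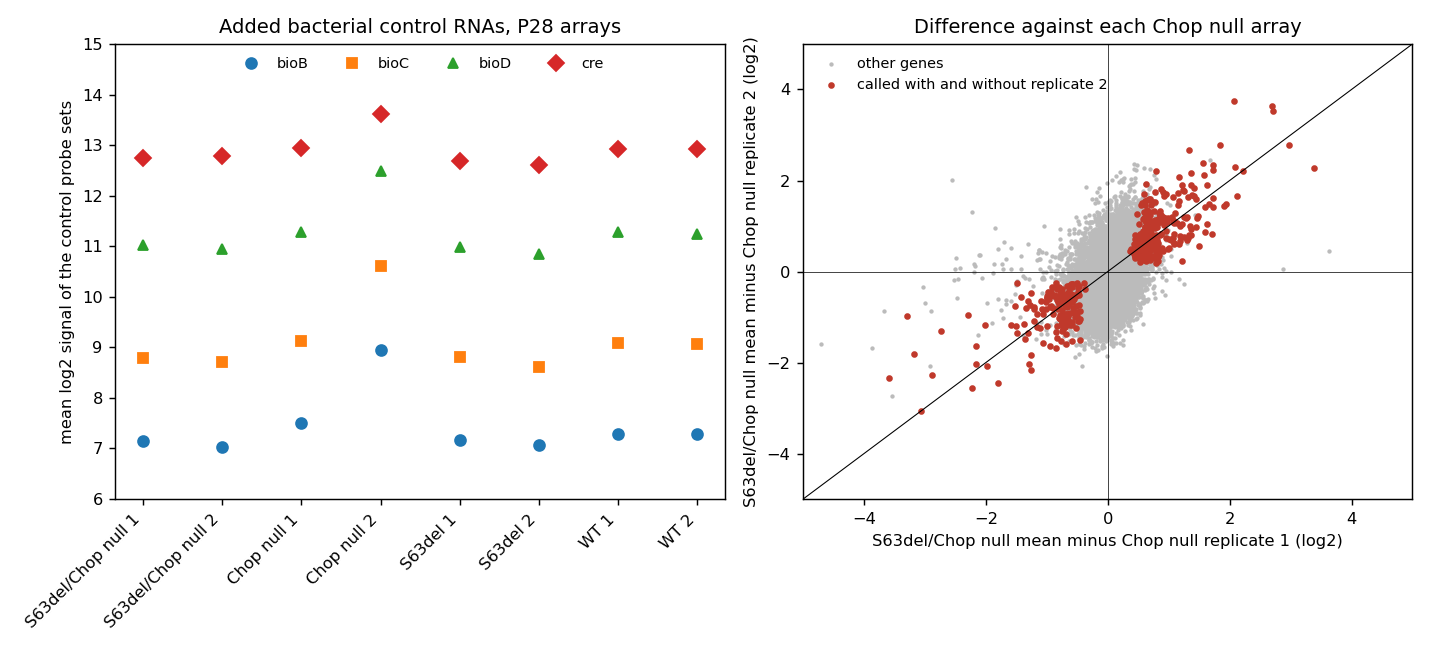
Left, mean log2 signal of 4 added bacterial control RNAs on each of the 8 P28 arrays; Chop null replicate 2 is the highest for every one, with bioB at 8.95 against 7.03 to 7.50 on the others. Right, each gene's log2 difference of the S63del/Chop null mean against Chop null replicate 1 (horizontal) and replicate 2 (vertical), with the 428 genes called with and without replicate 2 in red and the line of equal values in black.

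Ddit3, the gene that the Chop null mice lack, read 6.78 and 6.76 in S63del/Chop null nerves, against 6.84 and 7.37 in Chop null nerves. With the gene intact it read 9.13 and 9.05 in S63del and 8.19 and 8.16 in WT nerves at P28. All 4 arrays labelled Chop null thus lay below all 4 arrays with the gene, and S63del/Chop null was not called different from Chop null (difference -0.33 ± 0.19, adjusted p = 0.229). The labelled tissue was checked on Schwann cell genes: the myelin genes Mbp (14.14 and 14.06 in S63del/Chop null, 14.25 and 14.15 in Chop null) and Pmp22 (14.25 and 14.23 in S63del/Chop null, 14.30 and 14.30 in Chop null) lay near the top of the range, which ended at a mean level of 14.2.

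ER chaperones and folding enzymes were higher in S63del/Chop null nerves. Of 28 measured genes of that list 8 rose and none fell, and another 7 were higher when both Chop null arrays were used, so 15 were called in the full fit. The median difference over the list was 0.45, with 0.36 against Chop null replicate 1 and 0.55 against replicate 2, while the median of all genes was -0.02, 0.02 and -0.06. In 19 of the 28 both S63del/Chop null arrays lay above both Chop null arrays, as they did in 23.3% of all genes. Hspa5 (BiP), the master chaperone of the ER lumen, read 12.91 and 12.93 in S63del/Chop null nerves, against 11.97 and 11.22 in Chop null nerves, a 2.50-fold higher level (difference 1.32 ± 0.21, adjusted p = 0.00137). Its 2 S63del/Chop null values nearly coincided and lay above both Chop null values, and against replicate 1 alone the difference was 0.95 (adjusted p = 0.0183). Sdf2l1, a partner of ER chaperone complexes, changed most of the list, at 8.76 and 8.65 in S63del/Chop null and 7.13 and 6.59 in Chop null nerves (1.84 ± 0.20, adjusted p = 7.58e-05). Creld2, which encodes an ER-resident protein induced by ER stress, read 10.05 and 9.99, against 8.79 and 8.97 in Chop null nerves (1.13 ± 0.22, adjusted p = 0.00479). Manf, a secreted protective factor of the ER, had 11.13 and 10.95, against 10.17 and 9.83 (1.04 ± 0.19, adjusted p = 0.00356). In each of these genes the 2 groups did not overlap.

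The remaining rises in the list were smaller. Hsp90b1 (GRP94), the HSP90 of the ER, read 12.58 and 12.71 in S63del/Chop null nerves, against 12.03 and 11.67 in Chop null nerves (0.79 ± 0.13, adjusted p = 0.00124). Dnajc3 (p58IPK), a co-chaperone that restrains PERK, read 10.24 and 10.23, against 9.54 and 8.99 (0.97 ± 0.17, adjusted p = 0.00274), with no overlap of the groups. Calr, a lectin chaperone, rose by 0.52, and Hsp90b1 and Calr had separate groups as well. Ero1b, an ER oxidase, differed by 0.73, with most of that against replicate 1 (1.22) and little against replicate 2 (0.24). Ero1a, the oxidase known as a Chop target, had 8.79 and 8.67 in S63del/Chop null and 8.85 and 8.72 in Chop null nerves, and these values overlapped. Its dimmer probe sets were higher, by 0.54 and 0.45, and did not pass. Dnajb9, a co-chaperone of BiP, was called with both arrays only (1.11; 0.69 against replicate 1, adjusted p = 0.0986).

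Promoters of these genes are shown because the ER stress response element (ERSE), the sequence that ATF6 is known to bind with NF-Y, marks many of them. The motif was searched as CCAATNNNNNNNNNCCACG on both strands, in RefSeq windows of 250 bases before and 50 after each gene start (GRCm38.p6). It was found in 39 of 32841 windows (0.119%), and in at least 1 window of 37 of 27018 genes (0.137%). In the ER chaperone list 24 of the genes had a window and 8 of these held the motif (33.3%). Of the 8, 6 rose in S63del/Chop null nerves and 1 more was called with both arrays, while of the 16 genes without it 1 rose. The 250 bases before the start are printed 5′ to 3′ with the matched letters in capitals for Hspa5 (chr2:34771840-34772089, plus strand), Hsp90b1 (chr10:86705445-86705694, minus strand) and Creld2 (chr15:88819396-88819645, plus strand), which rose by 1.32, 0.79 and 1.13:
Hspa5: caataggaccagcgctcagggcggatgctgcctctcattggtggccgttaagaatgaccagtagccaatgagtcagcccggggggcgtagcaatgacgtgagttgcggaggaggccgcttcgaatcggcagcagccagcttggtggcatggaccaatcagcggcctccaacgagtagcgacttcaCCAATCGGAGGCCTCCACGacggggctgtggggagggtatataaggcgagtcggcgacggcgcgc
Hsp90b1: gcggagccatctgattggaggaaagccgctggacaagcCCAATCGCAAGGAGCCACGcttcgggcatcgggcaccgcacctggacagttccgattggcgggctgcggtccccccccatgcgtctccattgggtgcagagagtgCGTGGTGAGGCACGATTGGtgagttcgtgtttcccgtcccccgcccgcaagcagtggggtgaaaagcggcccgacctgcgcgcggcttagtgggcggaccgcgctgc
Creld2: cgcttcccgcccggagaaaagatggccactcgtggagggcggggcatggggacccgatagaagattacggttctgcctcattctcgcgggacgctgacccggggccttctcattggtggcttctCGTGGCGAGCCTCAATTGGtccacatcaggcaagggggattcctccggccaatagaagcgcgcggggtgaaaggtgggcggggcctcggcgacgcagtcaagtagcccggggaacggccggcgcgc
Hsp90b1 holds 2 matches and the other two promoters 1 each. A match describes these letters in these windows and is not a measured binding site.

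The machinery that pulls misfolded proteins out of the ER changed in the same direction. Of 27 measured genes for ER-associated degradation (ERAD) or translocation, 4 rose and none fell, and 17 were called higher with both arrays. Among all genes 2.08% rose and 9.77% were called higher. The list's median difference was 0.50, with 0.31 and 0.66 against Chop null replicates 1 and 2. Syvn1 (HRD1), the ubiquitin ligase of the pathway, read 8.54 and 8.88 in S63del/Chop null nerves, against 7.75 and 7.83 in Chop null nerves (0.92 ± 0.15, adjusted p = 0.00156), and the difference was alike against replicate 1 (0.96) and replicate 2 (0.88). Xbp1, the transcription factor that IRE1 splices, read 11.67 and 12.05, against 10.99 and 11.04 (0.84 ± 0.13, adjusted p = 0.000819). Its 4 probe sets did not move together: 3 were higher, by 0.84, 0.78 and 0.48, and the dimmest was lower, with a difference of -0.60 that did not pass the test. Ufd1, which helps extract ubiquitinated proteins from the ER, rose by 0.89, and Ube2g2, a ubiquitin-conjugating enzyme, by 0.44. Edem1 (0.92), Herpud1 (0.44), Sec61a1 (0.67) and Sec11c (0.80) were called with both arrays only.

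Derl3, an ER membrane protein that is a classic target of the stress response, read 7.50 and 7.70 in S63del/Chop null nerves, against 6.65 and 7.59 in Chop null nerves. Against replicate 1 alone it was 0.95 higher (adjusted p = 0.0186), but replicate 2 lay between the 2 S63del/Chop null values, so the groups overlapped and the full fit did not call it (0.48 ± 0.24, adjusted p = 0.153). Ube2g2 and Syvn1 showed no such split.

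Among 19 measured sensors and transcription factors of the stress response, Atf3 alone rose. This stress-induced repressor read 8.19 and 8.44 in S63del/Chop null nerves, against 7.01 and 7.12 in Chop null nerves (1.25 ± 0.20, adjusted p = 0.00116; 1.31 against replicate 1). The 2 groups lay more than 1 log2 unit apart. Atf4 itself read 10.78 and 10.47, against 10.34 and 10.55, with overlapping arrays (0.18 ± 0.12, adjusted p = 0.277). Its 2 dimmer probe sets disagreed, with 1.26 (adjusted p = 0.00893 among probe sets) and -0.69, which did not pass. Atf6b (0.78), Cebpb (0.74) and Eif2ak3, which encodes PERK (0.45), were called with both arrays only.

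Genes downstream of ATF4 that serve amino acid supply gave 3 rises and no fall among 31 measured, and their median difference (-0.08; 0.00 and -0.14 against replicates 1 and 2) lay near that of all genes. The share of all genes that rose was 2.08%. Asns, asparagine synthetase, read 8.72 and 8.74 in S63del/Chop null nerves, against 7.40 and 7.94 in Chop null nerves (1.06 ± 0.15, adjusted p = 0.000478). It was higher against replicate 1 (1.33) than against replicate 2 (0.79), and the groups did not overlap. Slc3a2, the shared chain of several amino acid transporters, rose by 0.77 (adjusted p = 0.00309) and Psph, the last enzyme of serine synthesis, by 1.004 (adjusted p = 0.00419). Against replicates 1 and 2 Psph differed by 0.55 and 1.46. The glutathione-degrading enzyme Chac1 read 6.25 and 6.43, against 6.26 and 6.09, and Trib3, a pseudokinase induced by ATF4 and CHOP, 5.97 and 6.43, against 6.17 and 6.75. Neither passed the test (adjusted p = 0.51 and 0.304), and in both the groups overlapped.

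Asns is shown because ATF4 is known to act on it through a C/EBP-ATF response element (CARE). Searched as TGATGNAA on both strands, that motif was found in 3.97% of all windows. By gene, it was found in 4.51% of all genes and in 10 of the 26 list genes with a window (38.5%). The 250 bases before the Asns start (chr6:7693210-7693459, minus strand) hold 1 match:
Asns: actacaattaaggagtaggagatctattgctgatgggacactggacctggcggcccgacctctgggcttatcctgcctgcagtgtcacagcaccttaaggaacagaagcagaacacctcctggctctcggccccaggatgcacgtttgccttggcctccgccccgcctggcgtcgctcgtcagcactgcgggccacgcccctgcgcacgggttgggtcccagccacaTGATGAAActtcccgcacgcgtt
The windows of Slc3a2 and Psph, the other rises of the list, hold none of these letters, from which nothing follows about ATF4.

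Genes linked to CHOP gave 2 rises among 19 measured, and 5 were called higher and 1 lower with both arrays. For all genes the shares were 2.08% rising, 9.77% called higher and 8.05% called lower. Cd44, a hyaluronan receptor, read 9.07 and 9.23 in S63del/Chop null nerves, against 7.74 and 7.50 in Chop null nerves (1.53 ± 0.20, adjusted p = 0.000258). The other rise was Ero1b, described above. Gadd45a, a growth arrest gene, was called with both arrays only (1.35), with 0.46 against replicate 1 and 2.23 against replicate 2, so its size rested on replicate 2. Ppp1r15a (GADD34), the phosphatase subunit through which CHOP is known to restart translation, read 9.27 and 9.46 in S63del/Chop null and 8.99 and 8.69 in Chop null nerves. The groups did not overlap, but the difference missed the threshold (0.52 ± 0.18, adjusted p = 0.0552). Car6 was dim, at 3.89 and 3.79, against 3.66 and 4.999, and did not pass (adjusted p = 0.202). None of 18 aminoacyl-tRNA synthetases rose, and 6 of them were called higher with both arrays, with Farsb at 0.70 and Gars at 0.52. The other probe sets of Farsb gave 0.28, 0.01 and -0.27 and did not pass.

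Cytosolic heat shock proteins included one of the largest rises on the arrays. Hspa1a, an inducible HSP70, read 8.79 and 9.16 in S63del/Chop null nerves, against 6.26 and 5.46 in Chop null nerves (3.12 ± 0.30, adjusted p = 2.12e-05). Hspa1b, its near-identical neighbour whose transcripts share sequence with it, read 10.94 and 11.15, against 9.71 and 8.37 (2.01 ± 0.29, adjusted p = 0.000563), so the 2 genes are not independent readings. Hspb1 (HSP27), a small heat shock protein, read 12.17 and 12.49, against 10.98 and 11.32 (1.18 ± 0.16, adjusted p = 0.000397). In all of them both S63del/Chop null arrays exceeded both Chop null arrays. Hspa4l, an HSP110 family member, fell, at 8.01 and 7.88 in S63del/Chop null and 8.91 and 8.54 in Chop null nerves (-0.78 ± 0.15, adjusted p = 0.00378). Over 19 measured genes 3 rose and 1 fell, against 2.08% and 1.37% of all genes. The median was 0.54 (0.32 and 0.64 against replicates 1 and 2), and 10 were called higher with both arrays, against 9.77% of all genes. Those that needed both arrays included the constitutive Hspa8 (0.46) and Hsp90aa1 (0.77) and the mitochondrial chaperonin Hspd1 (0.54).

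**Figure D2:**
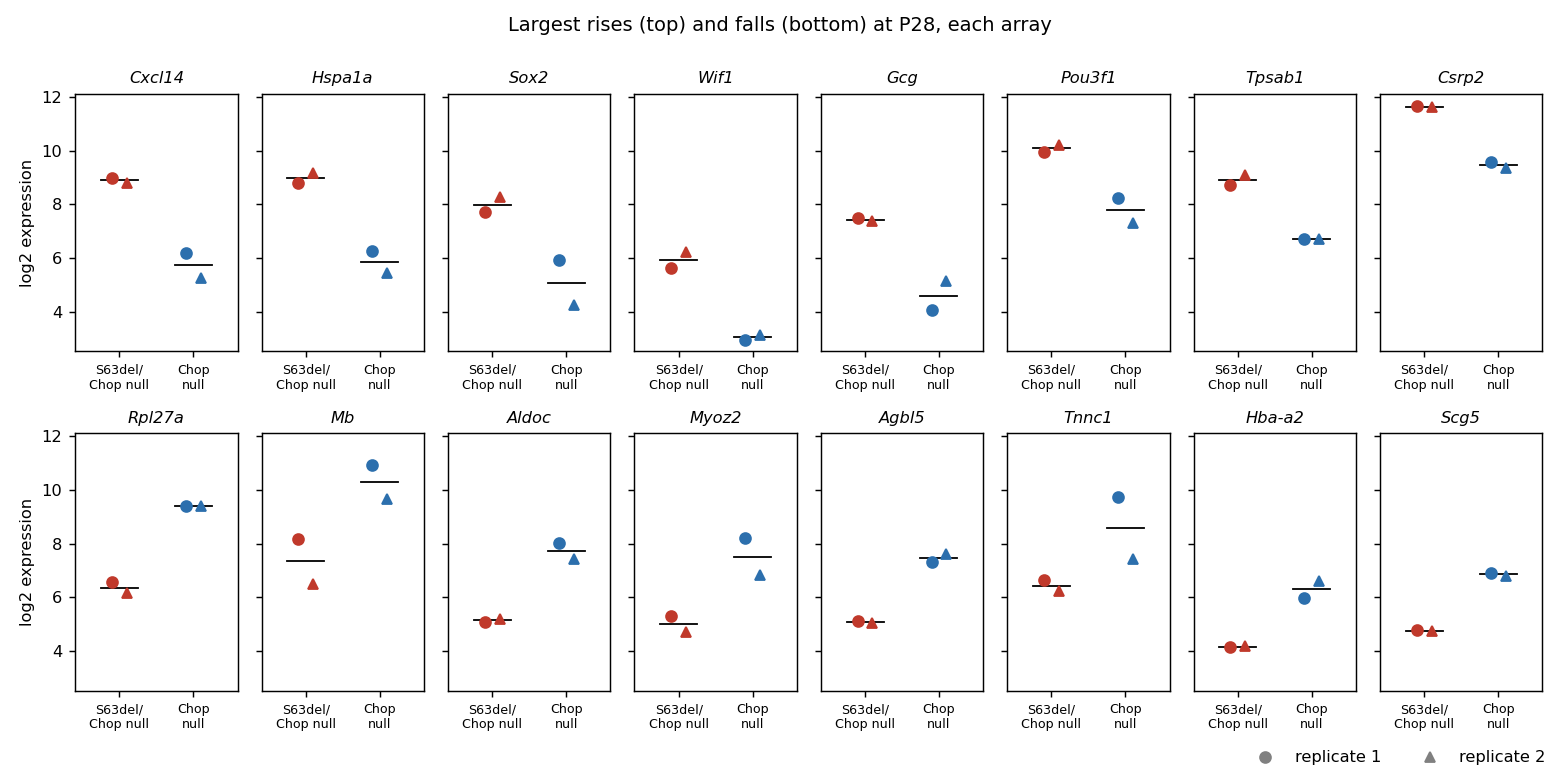
Log2 expression of the 8 largest rises (top row) and 8 largest falls (bottom row) among genes called with and without Chop null replicate 2, for each S63del/Chop null (red) and Chop null (blue) array at P28; circles are replicate 1, triangles replicate 2 and bars group means. No gene shown has overlapping groups, and Tnnc1 shows the widest spread between Chop null replicates, at 9.74 and 7.42.

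The list with the most rises was of genes that mark immature or repair Schwann cells, the states before myelination and after injury. Of 38 measured genes 16 rose and none fell (19 higher and 1 lower with both arrays), with a median of 0.70 and of 0.52 and 0.88 against Chop null replicates 1 and 2. Sox2, which holds Schwann cells in the immature state, read 7.71 and 8.27 in S63del/Chop null nerves, against 5.92 and 4.24 in Chop null nerves (2.91 ± 0.38, adjusted p = 0.000267). Its Chop null arrays differed by 1.68 between themselves, both below the S63del/Chop null arrays, and the difference was 2.06 against replicate 1 and 3.75 against replicate 2. Pou3f1 (Oct6), the factor of the promyelinating stage, read 9.95 and 10.22, against 8.25 and 7.31 (2.31 ± 0.35, adjusted p = 0.000836). Id2, an inhibitor of differentiation, read 9.79 and 10.02, against 8.19 and 7.57 (2.03 ± 0.24, adjusted p = 0.000162). Other probe sets gave smaller differences, 1.23 for Pou3f1 and 1.27 and 0.82 for Id2. These are transcription regulators that are known to fall as myelination proceeds.

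Jun, which drives the repair programme after injury, read 9.24 and 9.68 in S63del/Chop null nerves, against 8.38 and 7.82 in Chop null nerves (1.36 ± 0.20, adjusted p = 0.000762; 0.69 at its dimmer probe set). Ngfr (p75), the neurotrophin receptor of immature Schwann cells, read 9.68 and 9.89, against 8.55 and 7.99 (1.51 ± 0.20, adjusted p = 0.000299), while its 2 dimmer probe sets gave 0.46 and 0.08 and did not pass. Gfap, an intermediate filament of non-myelinating and repair Schwann cells, rose by 1.21 (1.44 and 0.97 against replicates 1 and 2). Sox4 rose by 1.76, Mycn by 1.15, and the growth factor betacellulin, Btc, by 1.27. The neuregulin receptor Erbb3 rose by 0.90 and Notch1, which restrains myelination, by 0.79. In all 8 of these genes the groups were separate.

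Csrp2, a LIM-domain protein of the cytoskeleton, read 11.68 and 11.62 in S63del/Chop null nerves, against 9.56 and 9.34 in Chop null nerves (2.20 ± 0.19, adjusted p = 8.54e-06). Uchl1, a deubiquitinase best known from neurons, read 9.54 and 9.63, against 7.47 and 7.94 (1.88 ± 0.30, adjusted p = 0.00124). Of 22 measured axonal and neuronal genes, Uchl1 and Thy1 (0.88) rose, none fell, and 4 were called lower with both arrays. Wif1, a secreted WNT inhibitor, was dim in Chop null nerves and read 5.61 and 6.24, against 2.96 and 3.14 (2.88 ± 0.49, adjusted p = 0.00189). Timp1, a protease inhibitor, read 9.32 and 8.88, against 7.15 and 7.61 (1.72 ± 0.32, adjusted p = 0.00353). Cxcl14, a chemokine, showed the largest rise of all genes called with and without replicate 2, at 8.996 and 8.79 in S63del/Chop null nerves and 6.19 and 5.25 in Chop null nerves, 9.02-fold higher (6.50-fold against replicate 1 alone; adjusted p = 2.12e-05). Its second probe set gave a smaller difference of 1.68.

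Genes of the list for myelin and the myelinating Schwann cell were lower or not called. Of 18 measured, none rose and Cntn1 and Ugt8a fell, 5 were called lower with both arrays, and in 9 both S63del/Chop null arrays lay below both Chop null arrays. Over all genes 1.37% fell, 8.05% were called lower and 23.6% had such separate arrays. Cntn1 (contactin), a cell adhesion molecule, read 5.77 and 5.55 in S63del/Chop null nerves, against 6.92 and 7.50 in Chop null nerves (-1.55 ± 0.20, adjusted p = 0.000265). Ugt8a, which makes the myelin lipid galactosylceramide, read 12.72 and 12.77, against 13.31 and 13.02, a small difference with no overlap (-0.42 ± 0.13, adjusted p = 0.0344). Against replicates 1 and 2 Ugt8a differed by -0.57 and -0.27. Mbp, myelin basic protein, differed by -0.10 ± 0.09 and Pmp22 by -0.06 ± 0.09, and neither passed (adjusted p = 0.414 and 0.634). Mag differed by 0.15 ± 0.23 and Egr2, the master regulator of myelination, by 0.41 ± 0.18 (adjusted p = 0.104). The list's median was -0.07, against -0.02 for all genes.

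Several enzymes of cholesterol synthesis were lower: 4 of 19 measured fell and none rose, 7 were called lower with both arrays, and in 15 of the 19 both S63del/Chop null arrays lay below both Chop null arrays, while 23.6% of all genes did so. The median was -0.45, and it was -0.66 and -0.33 against replicates 1 and 2. Tm7sf2, a sterol reductase, read 8.92 and 8.84 in S63del/Chop null nerves, against 10.25 and 10.02 in Chop null nerves (-1.26 ± 0.20, adjusted p = 0.00124). Lss, lanosterol synthase, read 7.52 and 7.88, against 9.22 and 8.46 (-1.14 ± 0.28, adjusted p = 0.0147), with a wider gap to replicate 1 than to replicate 2. Idi1 and Pmvk, enzymes of the mevalonate branch, fell by 0.63 and 0.59. Sqle (-0.64), Fdft1 (-0.62) and Nsdhl (-0.72) were called with both arrays only. Among 26 genes of fatty acid and sphingolipid synthesis Elovl6, Fads1 and Ugt8a fell and none rose. Elovl6, an elongase of long-chain fatty acids, read 11.01 and 11.13, against 12.08 and 11.90 (-0.92 ± 0.17, adjusted p = 0.00361), and Fads1, a desaturase, fell by 0.61. Both had separate groups.

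**Figure D3:**
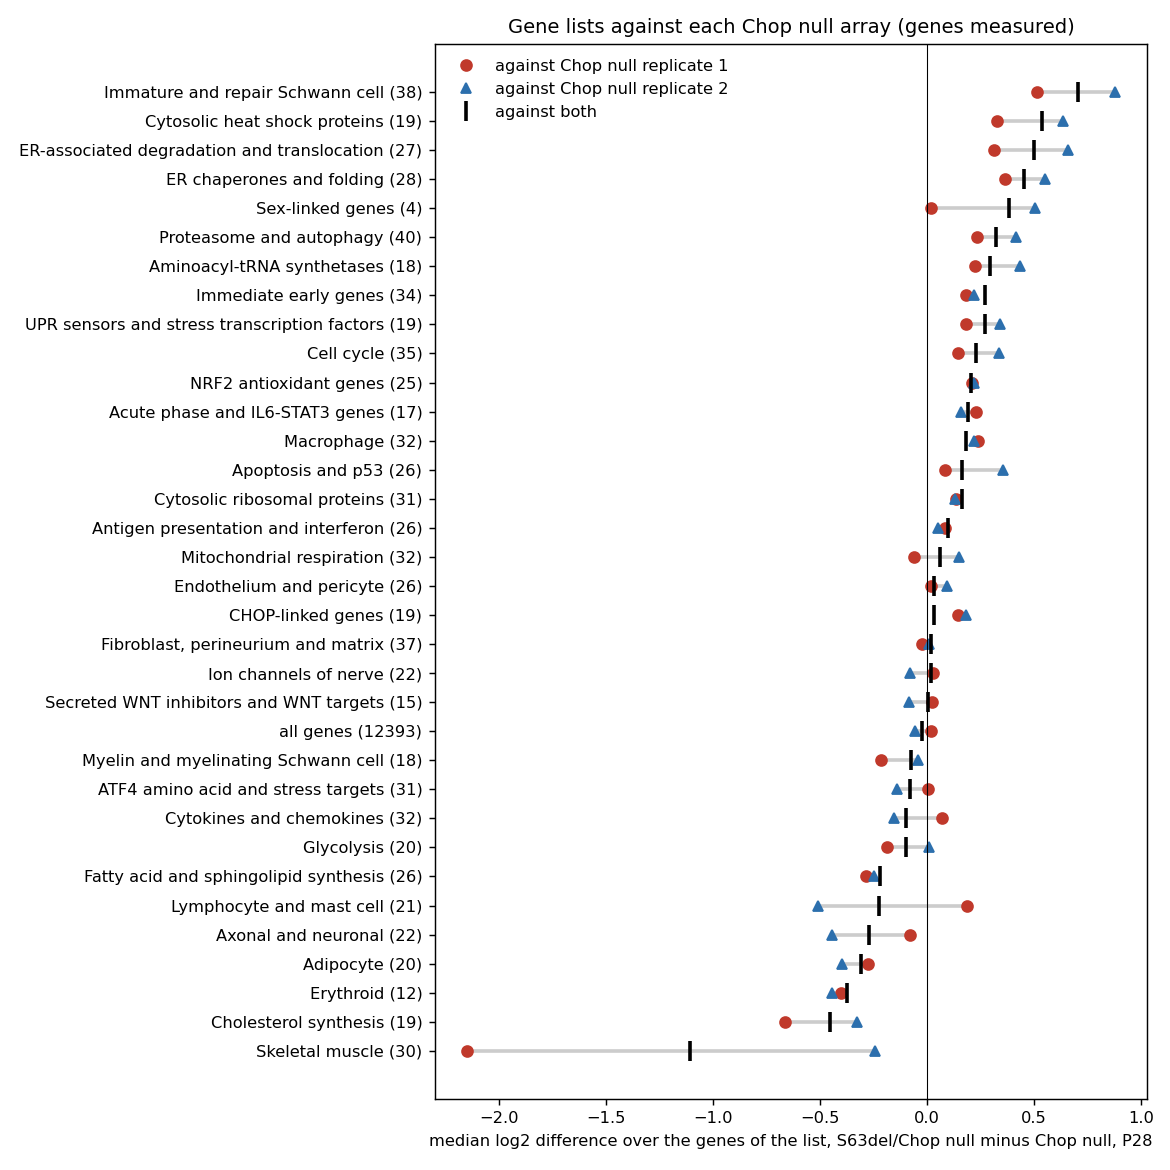
Median log2 difference, S63del/Chop null minus Chop null at P28, over the measured genes of each list (number in brackets), against Chop null replicate 1 (red circles), replicate 2 (blue triangles) and both (black bars). Immature and repair Schwann cell genes lie highest with both arrays, at 0.70, and skeletal muscle genes lowest, at -1.11, with -2.15 and -0.24 against the single arrays.

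Mast cell proteases rose. Of 21 lymphocyte and mast cell genes 5 rose and none fell, with 6 called higher and 3 lower with both arrays, and 4 of the 5 encode proteases of mast cells. The list's median was -0.23, with 0.19 and -0.51 against Chop null replicates 1 and 2. The tryptase Tpsab1 read 8.71 and 9.10 in S63del/Chop null nerves, against 6.69 and 6.71 in Chop null nerves (2.21 ± 0.31, adjusted p = 0.00047), with nearly equal gaps to both Chop null arrays. The second tryptase Tpsb2 read 9.03 and 9.36, against 7.70 and 8.63 (1.03 ± 0.23, adjusted p = 0.00875), the chymase Cma1 9.30 and 9.32, against 7.95 and 8.51 (1.08, adjusted p = 0.0186), and the carboxypeptidase Cpa3 9.72 and 9.54, against 8.38 and 8.87 (1.004, adjusted p = 0.0229). For these 3 the gap was larger to replicate 1 than to replicate 2, and no group overlapped. Tpsab1 and Tpsb2 are close paralogs that probe sets may not separate fully. Kit, the growth factor receptor of mast cells, read 5.60 and 5.76, against 5.48 and 5.59, and did not pass (adjusted p = 0.734).

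Macrophage genes gave 2 rises among 32 measured, and 7 were called higher with both arrays. The shares of all genes were 2.08% rising and 9.77% called higher. Lgals3 (galectin-3), also made by Schwann cells that break down myelin, read 10.92 and 10.78 in S63del/Chop null nerves, against 9.23 and 8.95 in Chop null nerves (1.76 ± 0.27, adjusted p = 0.000819). Ms4a7 read 8.88 and 8.98, against 7.74 and 7.93 (1.10 ± 0.20, adjusted p = 0.00276). In 18 of the 32 genes both S63del/Chop null arrays lay above both Chop null arrays, as in 23.3% of all genes. The protease Ctss (1.04), the complement gene C1qb (0.77) and Cd52 (0.83) were called higher with both arrays only. Other probe sets of C1qb gave 0.39 and 0.12 and did not pass. Some widely used markers did not pass: Adgre1 (F4/80) differed by 0.45 ± 0.16 (adjusted p = 0.059), Cd68 by 0.05 ± 0.16 and Csf1r by -0.15 ± 0.15. Over the list the median was 0.18, against -0.02 for all genes.

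Genes of the acute phase and of signalling through STAT3 gave 4 rises and no fall among 17. Saa1, serum amyloid A, read 7.02 and 6.65 in S63del/Chop null nerves, against 5.11 and 4.62 in Chop null nerves (1.98 ± 0.30, adjusted p = 0.000762). Osmr, the oncostatin M receptor, read 9.09 and 9.01, against 7.90 and 7.60 (1.30 ± 0.17, adjusted p = 0.000331; 0.65 and not passing at its dimmer probe set), and Socs3, the feedback inhibitor of STAT3, 8.81 and 9.10, against 7.70 and 7.19 (1.52 ± 0.29, adjusted p = 0.00372). Timp1 is the remaining one. Immediate early genes gave 6 rises among 34, with Fos at 8.95 and 9.33 in S63del/Chop null and 7.72 and 7.31 in Chop null nerves (1.62 ± 0.21, adjusted p = 0.000237), beside Jun, Atf3, Socs3, Btg1 (0.87) and the phosphatase Dusp6 (0.90). Il18 fell by 0.67, and it and Cxcl14 were the called members of 32 cytokines and chemokines that held without replicate 2.

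Antioxidant genes under NRF2 gave 3 rises of 25, among them Srxn1, sulfiredoxin, at 8.62 and 8.62 in S63del/Chop null and 7.35 and 7.46 in Chop null nerves (1.22 ± 0.27, adjusted p = 0.00788), though its 3 dimmer probe sets gave 0.90, 0.40 and -0.32 and did not pass, with Gsr (0.73) and Taldo1 (0.65). Of 35 cell cycle genes 3 rose and 1 fell: the ribonucleotide reductase subunit Rrm2 differed by 1.08, cyclin D1 (Ccnd1) by 1.03, Mcm7 by 0.67 and Stmn1 by -0.58. The other probe sets gave 0.48 and 0.39 for Ccnd1, neither passing, and 0.77 and 0.12 for Rrm2, of which the smaller did not pass. The proliferation marker Mki67 was called with both arrays only (0.93; 0.57 against replicate 1, adjusted p = 0.365). The list of the proteasome and autophagy depended on the choice of control array, with 20 of 40 genes called higher with both arrays and 1, Psmc4 (1.08), without replicate 2 as well. In the 26 genes of apoptosis and p53, Bak1 rose (0.69), though its second probe set gave -0.17 and did not pass. Of 22 ion channel genes the glutamate receptor subunit Gria1 (1.57) and the potassium channel Kcnj10 (1.57) rose. No gene of 20 adipocyte genes or of 32 genes of mitochondrial respiration rose or fell. Of 37 genes of fibroblasts and matrix Thbs4 rose (0.68) and Ogn (-0.56) and Cnmd fell, and of 26 genes of antigen presentation H2-DMa fell (-0.86). With 2.08% of all genes rising and 1.37% falling, single calls say little about these lists. Among 26 genes of endothelium and pericytes Pdgfrb alone rose (0.93), and its second probe set differed by -0.01.

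Skeletal muscle genes fell in the counts but varied between replicates of every group. Of 30 measured genes 4 fell and none rose, and 5 were called lower with both arrays. The mean level of the list was 9.46 and 7.24 on the S63del/Chop null arrays, against 10.7 and 8.82 on the Chop null arrays, 7.11 and 9.15 on the S63del arrays and 9.71 and 9.28 on the WT arrays. Fast-fibre genes such as Acta1 overlapped between the groups, at 12.82 and 9.85 in S63del/Chop null and 13.20 and 11.17 in Chop null nerves (adjusted p = 0.638). Slow-fibre and oxidative genes were the ones that fell. Mb, myoglobin, read 8.18 and 6.50, against 10.94 and 9.67 (-2.97 ± 0.76, adjusted p = 0.0172; -0.48 and not passing at its dimmer probe set), and slow troponin C, Tnnc1, 6.63 and 6.23, against 9.74 and 7.42 (-2.14 ± 0.59, adjusted p = 0.0231). Myl3, a slow myosin light chain, and Tnni1, slow troponin I, fell by 1.62 and 0.99. Against replicates 1 and 2 Myl3 differed by -2.29 and -0.95 and Tnni1 by -1.43 and -0.56. Myh2, a fast oxidative myosin, read 5.58 and 4.65, against 8.66 and 7.86, but did not pass without replicate 2 (adjusted p = 0.0739). In S63del nerves Tnnc1 read 6.28 and 6.59 and in WT nerves 5.77 and 6.44, so it was the Chop null arrays that stood above the rest. The part of attached muscle in these falls was not tested.

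Outside muscle, several of the largest falls rested on 1 probe set of the gene. The brightest probe set of Rpl27a, a ribosomal protein gene, read 6.56 and 6.16 in S63del/Chop null nerves, against 9.42 and 9.42 in Chop null nerves (-3.06 ± 0.25, adjusted p = 4.38e-06), whereas its other probe set, dim on all arrays, gave -0.42 and did not pass. No other ribosomal protein gene of 31 measured rose or fell. Agbl5, a tubulin deglutamylase, read 5.10 and 5.04, against 7.31 and 7.63 (-2.40 ± 0.17, adjusted p = 1.06e-06), and its other probe set gave -0.04. Kdelr2, a retrieval receptor of ER proteins, read 10.10 and 10.06, against 11.35 and 12.25 (-1.72, adjusted p = 0.000299), with -0.11 at its other probe set. Gatad1 gave -1.66 and, at its other probe set, 0.22. For these genes the size of the fall therefore depends on the probe set, and for Gatad1 the direction does too. The transcripts behind the probe sets that fell were not analysed here.

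A control reading moved with those falls. The control probe set at the 3′ end of 18S ribosomal RNA read 6.02 and 5.92 in S63del/Chop null nerves, against 9.67 and 10.6 in Chop null nerves, and it read 6.19 and 6.71 in S63del, against 9.65 and 9.43 in WT nerves at P28. At P5 all 8 arrays lay between 7.32 and 8.66. Rpl27a showed the same split at P28, at 6.16 and 6.27 in S63del and 9.21 and 9.15 in WT nerves, and so did Agbl5, at 5.25 and 5.31 in S63del and 7.35 and 7.39 in WT nerves. The part of 18S RNA in these falls was not tested.

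Aldoc, aldolase C, read 5.08 and 5.20 in S63del/Chop null nerves, against 8.03 and 7.41 in Chop null nerves (-2.58 ± 0.39, adjusted p = 0.000762), and its dimmer probe set was lower too (-0.81). The other genes of this paragraph that fell by over 1 log2 unit, Hba-a2, Scg5, Pla2g5 and Cnmd, have 1 probe set each. Hba-a2, an alpha globin, read 4.15 and 4.18, against 5.97 and 6.61 (-2.13 ± 0.18, adjusted p = 8.54e-06). It moved with the 18S control reading, at 4.09 and 4.29 in S63del and 6.45 and 6.23 in WT nerves at P28, and differed by -0.32 at P5 without a call. Of 12 erythroid genes it alone fell, and Hbb-b2, a beta globin, differed by -1.06 ± 0.44 without passing (adjusted p = 0.0989). Aldoc and the lactate transporter Slc16a3 (-0.76) fell among 20 genes of glycolysis, while 1.37% of all genes fell. Scg5, a secretory granule chaperone, read 4.77 and 4.74, against 6.92 and 6.78 (-2.09 ± 0.33, adjusted p = 0.00114). Pla2g5, a secreted phospholipase, and Cnmd (chondromodulin) fell by 2.03 and 1.89. In Aldoc, Hba-a2, Scg5, Pla2g5 and Cnmd the groups were separate. On the other side, Gcg, whose product is glucagon, rose, at 7.48 and 7.37, against 4.04 and 5.14 (2.83 ± 0.70, adjusted p = 0.0144), Abhd3, a lipase, rose by 1.98 and Kng1, kininogen, by 1.67 (0.10 at its other probe set).

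The next question was whether S63del acts differently when Chop is present. The effect with Chop, S63del against WT at P28, comes from 4 other arrays, and 572 genes were called there (4.62%), 373 higher (3.01%) and 199 lower (1.61%). The difference of the 2 effects was tested directly, and limma called 0 of 12393 genes, with 972 at an unadjusted p under 0.05 (7.84%) and 0 again without Chop null replicate 2, when 1181 had an unadjusted p under 0.05 (9.53%). With Chop null replicate 1 left out instead, 2239 genes were called. Of the 258 genes that rose without Chop, 120 were also called higher in S63del against WT (46.5% of the 258 and 32.2% of the 373). Of the 170 that fell, 80 were also called lower there (47.1% of the 170 and 40.2% of the 199). Across all genes, which are not independent, Pearson's r between the 2 sets of differences was 0.69, and 0.63 and 0.58 with Chop null replicate 1 or 2 alone. The 4 P28 arrays with S63del also lay apart from the 4 without it in the control readings given above (18S, bioB, bioC, bioD and cre), so both effects share that split, and its part in the shared genes was not tested.

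The 2 effects can be set side by side in the leading genes. Hspa5 differed by 1.32 without Chop and 1.28 with it (difference of effects 0.04 ± 0.30, adjusted p = 0.986), Sdf2l1 by 1.84 and 1.71, and Asns by 1.06 and 0.77. Among Schwann cell genes Cxcl14 had 3.17 and 2.81, Csrp2 2.20 and 2.14, and Sox2 2.91 and 2.19. Jun gave 1.36 without Chop and 0.80 with it, a difference of 0.56 ± 0.29 (adjusted p = 0.654). With errors of this size, a difference that did not pass does not show that the effects are alike. Tm7sf2 gave -1.26 and -1.19 (adjusted p with Chop = 0.0029) and Lss -1.14 and -1.57 (adjusted p with Chop = 0.00469). The list medians without and with Chop were 0.45 and 0.27 for ER chaperones, 0.70 and 0.43 for immature and repair Schwann cell genes and -0.45 and -0.51 for cholesterol synthesis.

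Some genes had quite different values in the 2 backgrounds, though none passed the test of the difference. Fam13c read 7.49 and 7.75 in S63del/Chop null nerves, against 6.26 and 5.71 in Chop null nerves, while S63del (6.99 and 6.92) and WT nerves (6.67 and 6.79) lay between them. Its difference of effects was 1.41 (adjusted p = 0.171). Derl3 gave 0.48 without Chop and 1.30 with it (difference -0.82, adjusted p = 0.57). Gria1 gave 1.57 and 2.03. Slow muscle troponin Tnnc1 gave -2.14 without Chop and 0.33 with it (adjusted p of the difference = 0.484).

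**Figure D4:**
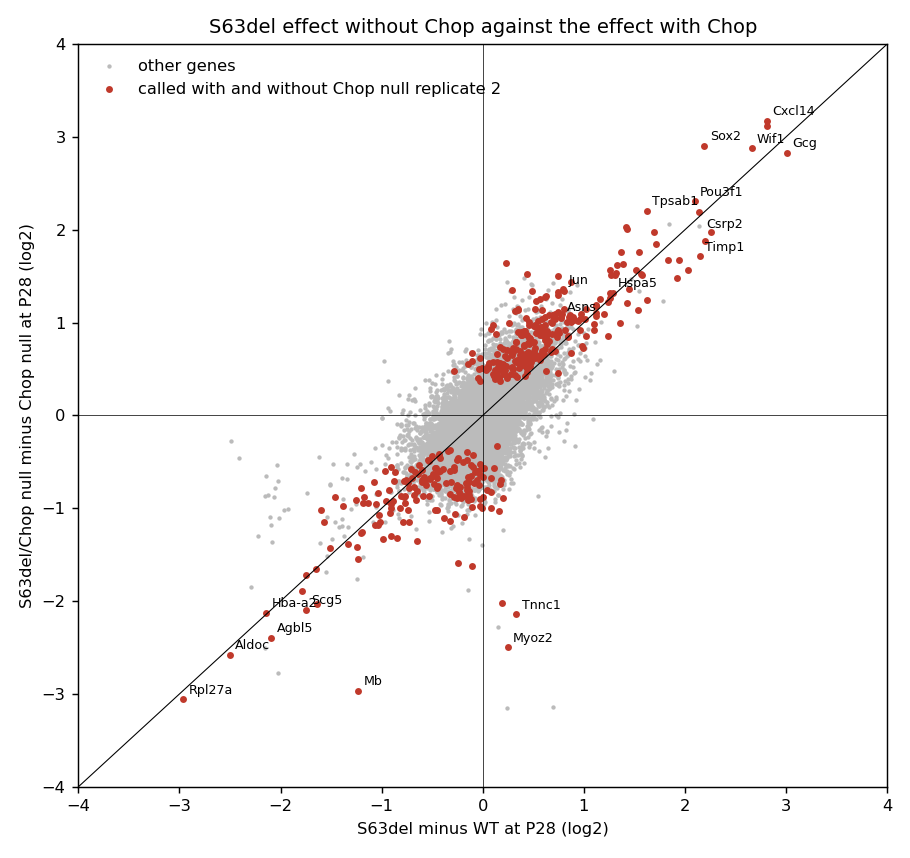
Each gene's log2 difference at P28 without Chop (S63del/Chop null minus Chop null, vertical) against that with Chop (S63del minus WT, horizontal); red points are the 428 genes called with and without Chop null replicate 2, and the line marks equal values. Most labelled genes lie near the line, while the muscle genes Mb, Tnnc1 and Myoz2 lie below it.

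The effect of S63del without Chop was also set against the same comparison at P5, early in myelination, which uses 4 other arrays. There 221 genes were called (1.78%), 112 higher (0.904%) and 109 lower (0.88%). Of the 258 genes that rose at P28, 36 were also called higher at P5 (14.0% of the 258 and 32.1% of the 112), and of the 170 that fell 25 were also called lower (14.7% and 22.9% of the 109). The difference between the ages was called for 92 genes (0.742%), 53 with a higher value at P28 (0.428%) and 39 with a lower one (0.315%). Without Chop null P28 replicate 2 it was called for 78 genes (0.629%), 54 of them among the 92 (0.436% of all genes).

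Several stress genes had a smaller effect at P28. Of the lists, the difference was called in either direction for 3 of 19 cytosolic heat shock genes, 3 of 31 ATF4 genes, 2 of 27 ERAD genes and none of 28 ER chaperones. Not all of these effects were smaller at P28. The ERAD list's Xbp1 differed by 0.84 at P28 and -0.09 at P5, and the heat shock gene Hspa4l by -0.78 and 0.16. Hspa1a differed by 3.12 at P28 and 5.32 at P5, where S63del/Chop null nerves read 11.27 and 11.05, against 5.69 and 5.99 in Chop null nerves (difference between ages -2.20, adjusted p = 0.0215). Hspb1 differed by 1.18 at P28 and 3.76 at P5 (adjusted p = 2.37e-05). Chac1, not called at P28, differed by 2.81 at P5, with 7.68 and 7.22 in S63del/Chop null and 4.75 and 4.54 in Chop null nerves (adjusted p = 2.51e-05). Asns followed the same order, with 1.06 at P28 and 2.90 at P5 (adjusted p = 0.000264). Derl3 (0.48 at P28 and 2.65 at P5), Fbxo2, a ubiquitin ligase subunit for glycoproteins (0.55 and 3.33), and the beta tubulin Tubb3 (0.52 and 2.82) also passed. The Chop null level of Hspb1 was 10.98 and 11.32 at P28 and 8.78 and 9.08 at P5.

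Schwann cell genes gave the opposite order, and the difference was called for 7 of 38 immature and repair genes. Sox2 differed by 2.91 at P28 and 0.41 at P5, where both groups were high, at 9.57 and 9.49 in S63del/Chop null and 9.11 and 9.14 in Chop null nerves (difference between ages 2.50, adjusted p = 0.0367). Without Chop null P28 replicate 2 that difference was 1.66 and no longer passed (adjusted p = 0.0719). Csrp2 differed by 2.20 at P28 and -0.04 at P5, with 12.71 and 12.76 in S63del/Chop null and 12.81 and 12.75 in Chop null nerves at P5 (adjusted p = 0.000528; 0.0031 without replicate 2). Both genotypes thus had less Csrp2 at P28 than at P5, and Chop null nerves by the wider margin. Id2 differed by 2.03 and 0.30, and Tpsab1 by 2.21 and -0.31 (adjusted p = 0.0235 and 0.0107), and Id2 no longer passed without replicate 2 (1.42, adjusted p = 0.0893). Cholesterol synthesis moved the same way at both ages, with 15 of 19 genes called lower at P5 and a median of -0.99, and no gene of the list was called for the difference. At 4 months limma called 0 genes in S63del/Chop null against Chop null, with 181 at an unadjusted p under 0.05 (1.46%). Hspa5 differed by -0.08, Cxcl14 by -0.34, Sox2 by -0.04 and Tm7sf2 by 0.10. Replicates disagreed at that age in some genes that fell at P28. Aldoc read 6.64 and 5.01 in S63del/Chop null and 5.02 and 6.16 in Chop null nerves. In S63del nerves it read 4.61 and 4.88, and in WT nerves 6.82 and 6.41. Tm7sf2 read 8.09 and 7.39, against 7.38 and 7.92 in Chop null nerves. Group means can be close in such genes although arrays differ, so 0 calls do not show that the effect was gone. The cause of that disagreement was not tested.

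**Figure D5:**
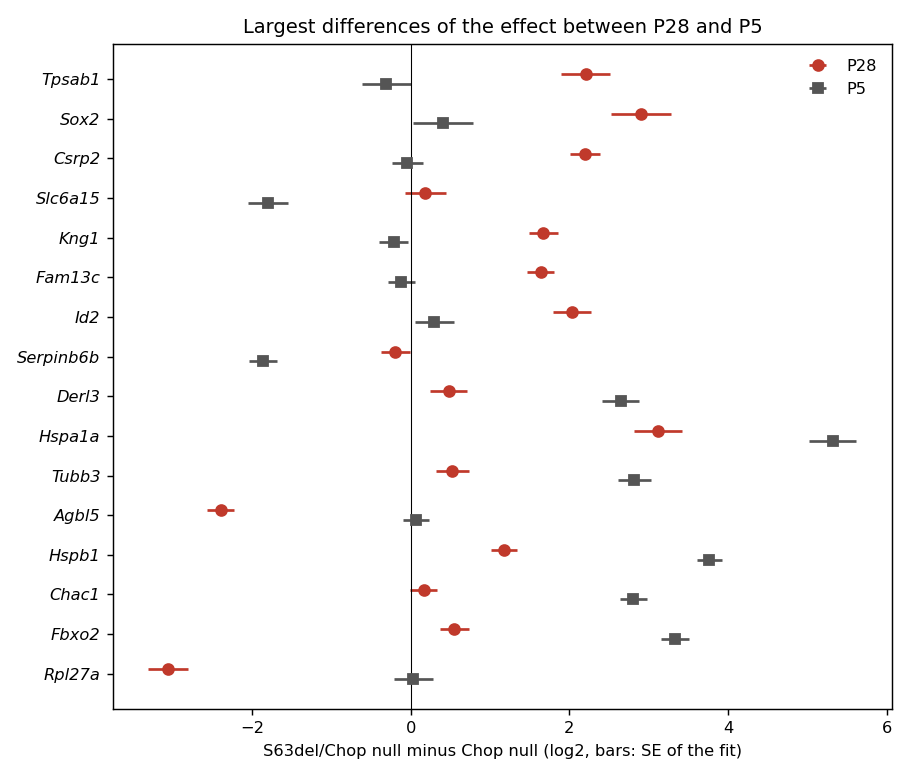
Log2 difference, S63del/Chop null minus Chop null, at P28 (red circles) and P5 (grey squares) with the SE of the fit, for the 8 genes with the largest called difference between the ages in each direction. Sox2, Csrp2, Id2 and Tpsab1 are higher at P28, and Hspa1a, Hspb1, Chac1, Derl3, Fbxo2 and Tubb3 lower.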

How the data were processed

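RNA of sciatic nerve was labelled and hybridised to Affymetrix arrays, from 5 ug of total RNA as biotinylated cRNA, per the labels' protocols. The deposited values were log2 expression, 1 column per array. No source used here gives how the authors normalized them. Of 22690 probe sets, 20380 carried 1 gene symbol, and each of 12393 genes was represented by its brightest probe set.

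A limma model with 12 groups was fitted to all 24 arrays (R 4.3.3, limma 3.58.1, statmod 1.5.0), with p-values adjusted by Benjamini-Hochberg over all genes. It was tested on simulated data in which a gene had the same spread in every group. The Chop null P28 arrays had a wider spread (replicate SD 0.394), so the simulation cannot vouch for calls in this comparison. The number of arrays limits the precision. Replicate numbers did not pair the arrays. The arrays were taken by their titles, but this comparison and the gene lists were chosen with earlier results of these data known. Genes were named by a rule: the 15 largest changes each way with separate groups, the 8 largest each way also called without Chop null replicate 2, up to 5 of each list with the smallest p, a fixed set of genes, and the 8 largest each way of the called differences between effects. The fixed set held stress genes and also Cxcl14, Sox2, Pou3f1, Id2, Wif1, Aldoc and Scg5, which are among the largest changes here. Another 25 list members were chosen after their values were seen.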

Additional observations from a re-analysis of the deposited data

Results flagged for a closer look

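For 92 genes limma called a difference between the effect of S63del without Chop at P28 and at P5. The 8 largest each way are listed here (effect at P28 minus effect at P5, log2). Other named genes were called too, among them Asns (-1.84), Hba-a2 (-1.81) and Xbp1 (0.93). Of the listed genes, the difference was positive for Tpsab1 (2.51), Sox2 (2.50), Csrp2 (2.24), the amino acid transporter Slc6a15 (1.98), Kng1 (1.88), Fam13c (1.75), Id2 (1.73) and the serpin Serpinb6b (1.67). It was negative for Rpl27a (-3.09), Fbxo2 (-2.78), Chac1 (-2.64), Hspb1 (-2.59), Agbl5 (-2.46), Tubb3 (-2.30), Hspa1a (-2.20) and Derl3 (-2.17). Sox2 and Id2 did not pass without Chop null P28 replicate 2 (adjusted p = 0.0719 and 0.0893).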

How the results depend on the processing

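For S63del/Chop null against Chop null at P28, 2209 genes were called. The count was 84 with the P28 arrays alone and 14 with array weights, where 70 and 105 of the 137 named genes lost their call, and leaving out 1 array at a time gave 538 to 5988 genes. A further quantile step, averaging a gene's probe sets, testing each probe set alone, an intensity trend and a filter on dim genes gave counts within 1.5 times of it. With dim genes left out the calls were 1274 higher and 313 lower, against 1211 and 998 with all genes. Without replicate 2 of Chop null, 553 genes were called and Slc6a15 reversed, to -0.49 (adjusted p = 0.0416 by limma), against 0.18 with both arrays and 0.85 without replicate 1.

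The difference of the effect without and with Chop was called for 0 genes under every alternative, except that leaving out Chop null replicate 1 gave 2239, so leaving out single arrays gave 0 to 2239. The difference between P28 and P5 was called for 92 genes and for 12 with array weights. Leaving out 1 array at a time gave 25 to 4110 genes, where 4110 came from leaving out Chop null P28 replicate 1 and the others gave 25 to 78. With dim genes left out it was called in 77 genes with a higher value at P28 and 30 with a lower one, against 53 and 39. Each fit without an array leaves a lone array that is assumed to vary like the other groups. The cause of these changes was not tested beyond this.

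Replicate numbers are shared between groups but did not pair the arrays: the correlation of same-numbered deviations was 0.11 between S63del/Chop null and Chop null, and -0.32 to 0.21 over all pairs of P28 groups. With the replicate block, 1762 genes were called for S63del/Chop null against Chop null, 0 for the difference between effects with and without Chop, and 68 for the difference between ages.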
